A study of Mus musculus with 192 samples.

Results

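Gene expression at the upper edge of a voxel grid of the mouse brain, positions G3 to G9, was set against expression at its side walls, positions C1, C11, D1, D11, E1 and E11. A voxel is a small cube of tissue, and each array compared RNA of 1 voxel position with RNA of whole brain. Row letters and column numbers were read from the sample titles, which gave 36 arrays of 192 in all. Row G held 7, 7 and 5 arrays in datasets 1 to 3 (19 in all), and the lateral voxels held 6, 5 and 6 (17 in all). Both sides came from C57BL/6 males of age P56 and were compared with the same kind of reference, and the labels tell row G and lateral voxels apart by grid position alone. The labels call the voxel RNA pooled, describe the 3 datasets as independent harvests, and give no anatomical directions. "Dorsal surface" and "lateral surface" are therefore working names, and the marker genes below bear on likeness to cortex, not on direction. Voxel RNA carried Cy3 in datasets 1 and 3 and Cy5 in the dye-swapped dataset 2. The array of G8 in dataset 3 was left out because 41.5% of its values were missing or at the floor of the table, and that of D1 in dataset 2 because its place was in doubt. No array of G5 in dataset 3 was analysed here.

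As background, the outer cortex of the mouse brain wraps the top and sides of the forebrain, and its excitatory neurons lie in layers whose gene expression changes both with depth and from area to area. The myelin of oligodendrocytes is concentrated in the white matter beneath, and the striatum lies further inside. Dkk3 encodes a secreted glycoprotein of the Dickkopf family, other members of which block Wnt signalling at its co-receptors. Igfbp4 encodes a secreted protein that binds insulin-like growth factors and limits their access to the receptor.

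The values are the log2 ratios that the authors deposited, in which each gene had been centred on its own median over the arrays. A value therefore says where a position lies relative to the other positions for that gene, and levels of different genes cannot be compared. The direction of the ratio is not stated. Positive values were read as more RNA in the voxel, which is likely because the design sets voxel against whole brain. Among the 36 arrays, those of dataset 3 in row G had the most values missing or at the floor, between 1.15% and 20.4% (median 9.498%), against 0.52% to 5.90% (median 1.82%) in its lateral voxels. In dataset 2, 2 of 66 pairs of arrays correlated under -0.3 across genes, the lowest at -0.42, and no pair did so in datasets 1 and 3. The direction of dataset 2 was kept as deposited because the labels state its dyes. Whether its ratios had been turned for the swap is not stated, and the cause of the negative pairs was not tested. Arrays carry no read depth, so their number limits the precision. With the dataset as the replicate (n = 3), an exact sign test cannot go below p = 0.25, and tests rest on limma's spread shared across genes.

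To see whether the 2 edges were cortex-like, each side was set against the rest of the grid, which held 154 arrays. Genes of cortical excitatory neurons stood above the rest at both edges, and genes of myelin below. Markers that go the same way at both edges cannot tell dorsal from lateral. The median of the 6 tested excitatory genes was 0.92 in row G and 0.62 in the lateral voxels, with 6 of 6 above 0 at each edge. Over all 14883 genes the medians were 0.02 and 0.04, and 55.5% and 58.6% of genes were above 0. Dkk3 is one of the 6, and without it the medians were 0.82 in row G and 0.66 in the lateral voxels, with 5 of 5 above 0 at each edge. Vxn, which promotes neuronal differentiation, stood 1.47 above the rest in row G and 1.12 above it in the lateral voxels. Nrgn, a calmodulin-binding protein of dendritic spines, stood 1.02 and 0.93 above it in the same order. The 4 tested myelin genes had medians of -0.66 in row G and -1.04 in the lateral voxels, with 0 of 4 above 0 at either edge. Bcas1, a gene of myelinating oligodendrocytes, was at -1.04 in row G and -1.30 in the lateral voxels. Upper layer genes were above the rest for 6 of 6 members at both edges (medians 0.46 and 0.31). The other cortical lists were not uniformly above it. Deep layer genes had medians of 0.12 in row G (6 of 8 above 0) and -0.04 in the lateral voxels (3 of 8). Claustrum and lateral cortex genes had -0.12 in row G (2 of 6) and 0.09 in the lateral voxels (5 of 6). Area patterning genes had 0.33 and 0.24 (4 of 6 at each edge). No single gene passed the test against the rest in either comparison: limma with Benjamini-Hochberg adjustment called 0 of 14883 genes (0.0%) in each. At an unadjusted p under 0.05 there were 1031 genes (6.93%) for row G, 674 of them higher (4.53%) and 357 lower (2.4%). For the lateral voxels there were 1592 (10.7%), 992 higher (6.67%) and 600 lower (4.03%). The 2 comparisons share the rest of the grid as their baseline. In tissue samples such as these, fewer cells of a type and less RNA per cell cannot be told apart.

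**Figure D1:**
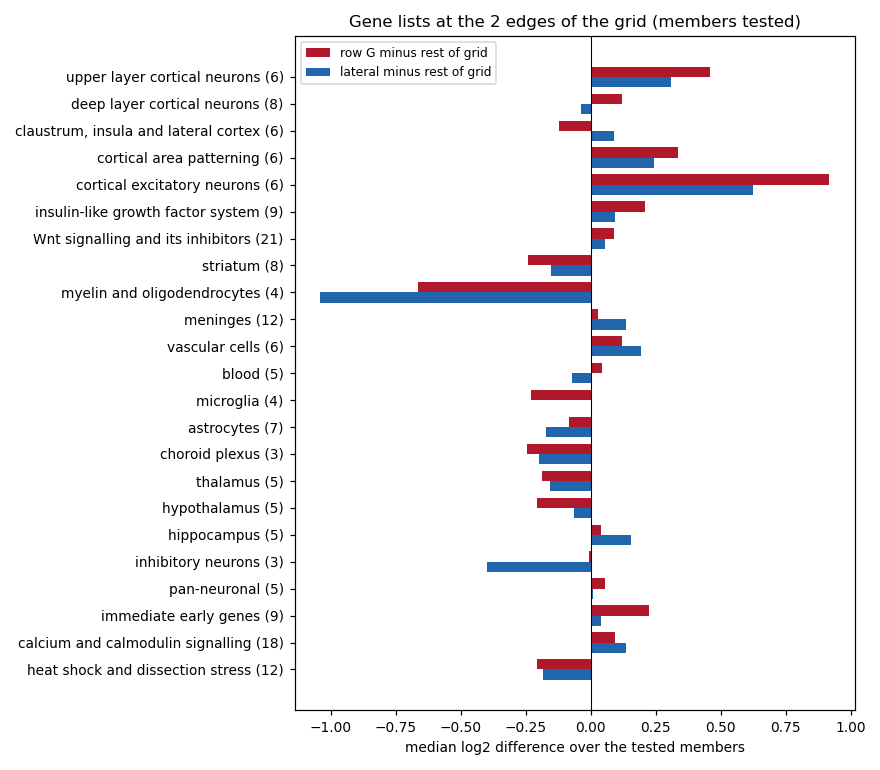
Median log2 difference from the rest of the grid over the tested members of each gene list (number in brackets), for row G (red) and the lateral voxels (blue). The excitatory neuron list lies at 0.92 and 0.62 and the myelin list at -0.66 and -1.04.

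No gene passed the test between row G and the lateral voxels. The limma fit on 1 difference per dataset called 0 of 14883 genes (0.0%) after Benjamini-Hochberg adjustment, with 353 genes (2.37%) at an unadjusted p under 0.05, 215 of them higher in row G (1.44%) and 138 lower (0.927%). A threshold of 0.05 lets through 5% of genes when none differs. The difference had the same sign in 3 of 3 datasets for 2915 genes (19.6%). Genes whose row G arrays all lay above the lateral arrays numbered 42 in dataset 1 (0.282%), 39 in dataset 2 (0.262%) and 220 in dataset 3 (1.48%). Those lying wholly below numbered 40 (0.269%), 25 (0.168%) and 129 (0.867%). No gene was separated in this way, in the same direction, in 2 or more datasets.

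The datasets did not share a common profile of differences. Across the 14883 genes the row G minus lateral difference of dataset 1 correlated with that of dataset 2 at r = -0.05 and with that of dataset 3 at r = 0.06. Datasets 2 and 3 ran against each other, at r = -0.30 (Spearman rho -0.32). These are correlations across genes, which are not independent replicates, on arrays of the same platform. For each edge against the rest of the grid the same pairs gave 0.00, 0.17 and 0.18 for row G and 0.18, 0.18 and 0.13 for the lateral voxels. Dataset 3 had the widest differences, with an SD over genes of 0.54, compared with 0.35 in dataset 1 and 0.31 in dataset 2. It had 997 genes beyond 1 in either direction, dataset 1 had 290 and dataset 2 had 124. The higher share of missing values in row G of dataset 3, given above, accompanies this spread, and its part in it was not tested.

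**Figure D2:**
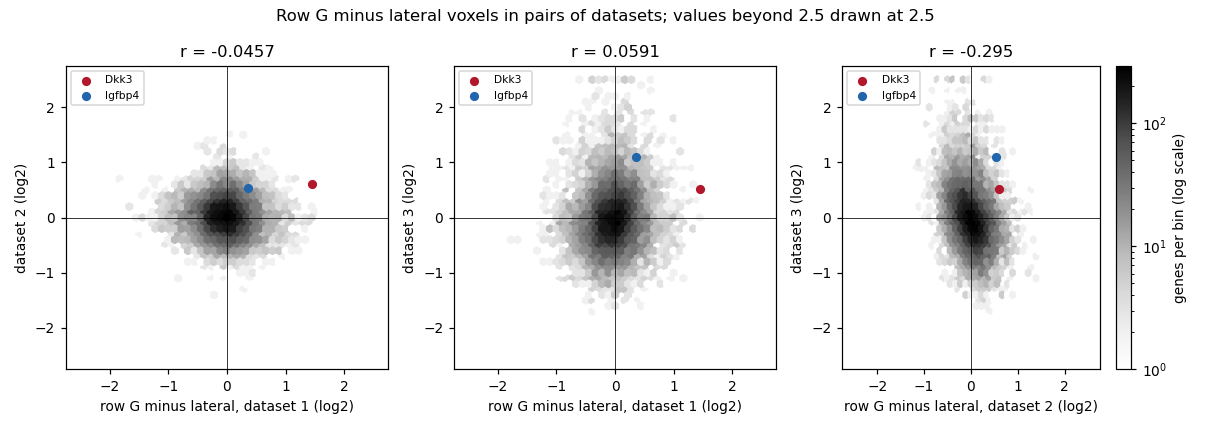
Row G minus lateral difference (log2) of each gene in 1 dataset against another, as shaded bins of the 14883 genes, with Dkk3 in red and Igfbp4 in blue. The clouds have no common slope in the pairs with dataset 1 and slope downward for datasets 2 and 3 (r = -0.295), while both marked genes lie above 0 on every axis.

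Dkk3 was higher in row G than in the lateral voxels in each dataset, though the difference did not pass the test. In dataset 1 its log2 ratio ran from 1.23 to 1.82 (median 1.55, 6 arrays) in row G, against -0.36 to 0.36 (median 0.14, 6 arrays) in the lateral voxels. In dataset 2 it ran from 0.40 to 1.81 (median 0.90, 7 arrays) in row G, against 0.18, 0.53, 0.50, 0.56 and 0.39 at C1, C11, D11, E1 and E11. In dataset 3 it was 0.30, 1.43, 1.42, 1.25 and -3.30 at G3, G4, G6, G7 and G9, against -1.17 to 0.55 (median -0.23, 6 arrays) in the lateral voxels. The sides did not overlap in dataset 1, G3 alone reached into the lateral range in dataset 2, and G3 and G9 did not rise above it in dataset 3. The differences were 1.45, 0.60 and 0.51 in datasets 1 to 3, a mean of 0.86 ± 0.52 (SD, n = 3 datasets), which is 1.81-fold. Its 95% interval ran from 0.30 to 1.41, and limma gave an adjusted p of 1.00. In order of p it stood at rank 35 of 14883. The mean was 0.56 without dataset 1 and 1.18 with G3 of dataset 2 and G9 of dataset 3 left out. Against the rest of the grid, Dkk3 stood 1.11 ± 0.43 higher in row G (SD, n = 3 datasets, limma adjusted p = 0.369) and 0.26 ± 0.16 higher in the lateral voxels (adjusted p = 0.495).

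Igfbp4 showed the same direction with more overlap between the sides. In dataset 1 it ran from 0.07 to 1.02 (median 0.47, 7 arrays) in row G, against -0.30 to 0.61 (median 0.05, 6 arrays) in the lateral voxels. In dataset 2 it ran from 0.33 to 1.20 (median 0.96, 7 arrays) in row G, against -0.20, 0.18, 0.38, 0.39 and 0.79 at C1, C11, D11, E1 and E11. In dataset 3 it was 1.29, 2.47, 0.63, 0.62 and 0.06 at G3, G4, G6, G7 and G9, against -0.61 to 0.30 (median 0.04, 6 arrays) in the lateral voxels. The ranges overlapped in every dataset, and in dataset 3 the single array that reached into the lateral range was G9. The differences were 0.36, 0.54 and 1.09, a mean of 0.67 ± 0.38 (SD, n = 3 datasets, 95% interval 0.19 to 1.14, 1.59-fold), with an adjusted p of 1.00 in limma. The gene had 2 rows in the table, which gave 0.55 and 0.83 on their own. Against the rest of the grid it stood 0.81 ± 0.27 higher in row G (adjusted p = 0.413, limma) and 0.14 ± 0.25 higher in the lateral voxels (adjusted p = 0.725, limma).

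**Figure D3:**
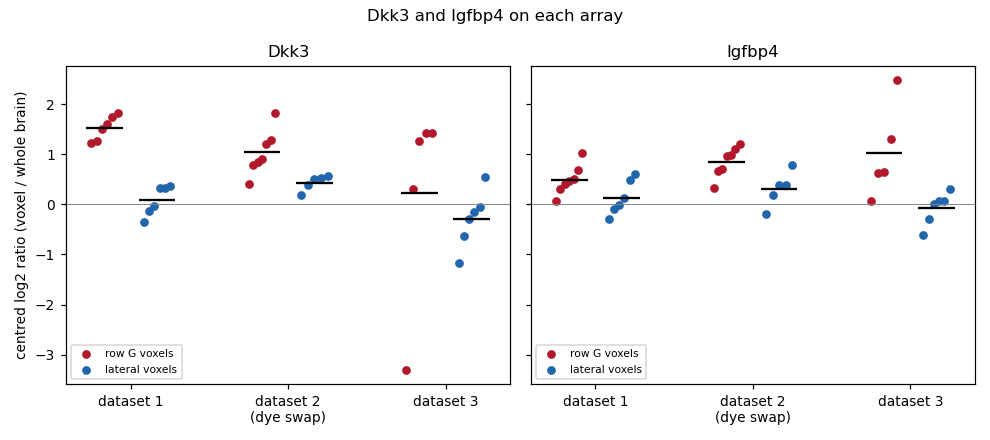
Centred log2 ratio of Dkk3 (left) and Igfbp4 (right) on each array, row G in red and lateral voxels in blue, with a bar at each mean. Row G lies wholly above the lateral voxels for Dkk3 in dataset 1 only, and the single point at -3.30 is G9 of dataset 3.

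By position, both genes were high along rows F and G, and Igfbp4 also at parts of row E. Dkk3 was highest at G5 (1.82 ± 0.01, n = 2) and F5 (1.58 ± 0.08, n = 3), and G6, G4, G7 and G8 ranked 6, 7, 9 and 10 of 68 positions at 1.41 ± 0.20, 1.40 ± 0.11, 1.28 ± 0.45 (n = 3 each) and 1.08 ± 0.26 (n = 2). G3 ranked 16 (0.64 ± 0.51, n = 3). G9 ranked 64 with a mean of -1.25 ± 2.90 over 2 datasets, 0.79 in dataset 2 and -3.30 in dataset 3. The lateral positions ranked 19 (C11, 0.47 ± 0.13) and 31 to 35, from 0.06 ± 0.29 at E11 to -0.10 ± 0.94 at E1. Igfbp4 was highest at F3 (1.70 ± 0.55) and G4 (1.49 ± 0.85, n = 3 each). E3 (1.10 ± 0.85, n = 2), E9 (1.04 ± 0.22) and E2 (0.71 ± 0.36, n = 3 each), beside the lateral columns or near them, ranked 7, 9 and 13. The remaining row G positions held ranks 11, 14, 15, 16, 19 and 22, and the lateral ones 20, 26 and 28 to 31. The lateral E11 (0.52 ± 0.25) stood between G6 (0.53 ± 0.21) and G9 (0.41 ± 0.60), which differ by less than their SDs.

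**Figure D4:**
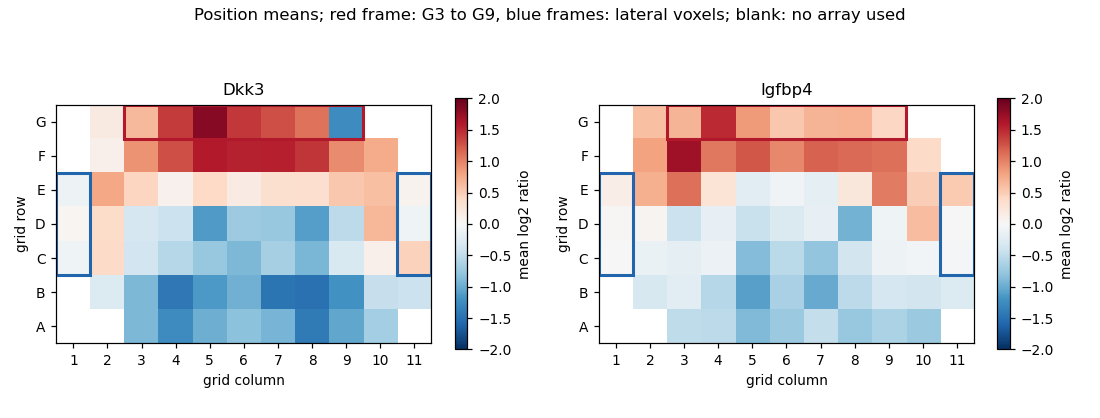
Mean log2 ratio of Dkk3 (left) and Igfbp4 (right) at each grid position over the datasets, by grid column and row, with row G framed in red and the lateral voxels in blue and colours limited to between -2 and 2. High values, in red, lie along rows F and G and for Igfbp4 also at E2, E3 and E9, and the blue square at G9 for Dkk3 is the mean of 2 unlike arrays (0.79 and -3.30).

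The 12 genes of smallest p in each direction, among named genes of 1 sign in 3 datasets, are given as a description, because their p chose them. All had an adjusted p of 1.00 in limma, and 24 of the 24 had row G and lateral ranges that overlapped in at least 2 of the 3 datasets. Over all genes, 0 of 14883 (0.0%) were separated in the same direction in 2 or more datasets, so this overlap is not particular to the 24.

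Above 0 were 12 genes, from 0.61 for Tmem229b to 1.21 for Rab1a. Rab1a, a small GTPase of transport from the endoplasmic reticulum to the Golgi, averaged 1.24 ± 0.56 in row G and 0.03 ± 0.43 in the lateral voxels (SD, n = 3 datasets). Its difference was 0.30 with floor values kept. Single arrays weighed on 2 datasets: C1 at -3.15 in dataset 1 and G3 at 3.79 in dataset 2. The medians of Rab1a in dataset 2 were -0.19 in row G and -0.29 in the lateral voxels. Msantd1 differed by 1.09 ± 0.47, and by 0.0062 with the sign of dataset 2 turned, which lowers any mean of 3 values of 1 sign. The next was Esam, an adhesion molecule of endothelial cells, with a difference of 1.03 ± 0.28. Esam in dataset 2 was at 5.90 at G3 and between -2.82 and -0.18 on the other row G arrays, against -2.60 to 0.41 in the lateral voxels. Its median there was -2.42 in row G and -1.98 in the lateral voxels, so the positive sign in dataset 2 rested on G3. The mean difference was 0.65 with G3 of dataset 2 and G9 of dataset 3 left out. It was 0.54 with quantile normalization and 0.68 with the median over arrays. Ehmt1, a histone H3 lysine 9 methyltransferase, differed by 1.00 ± 0.27 and Eqtn, a protein of the sperm acrosome, by 0.74 ± 0.14 (1.12 with floor values kept). For Eqtn the lateral mean of dataset 1 rested on C1, at -3.64. Without C1 that mean lay above the row G mean of 0.41, so the sign in dataset 1 turned.

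Nfix, a transcription factor of the nuclear factor I family, had the smallest SD over datasets in row G among the 12 genes above 0. It ran from 0.79 to 1.12 in dataset 1, from 0.25 to 1.08 in dataset 2 and was 1.11, 1.44, 1.25, 0.94 and -0.04 at G3, G4, G6, G7 and G9 in dataset 3. In the lateral voxels it ran from 0.02 to 1.01 in dataset 1, was 0.42, -0.23, 0.05, 0.72 and 0.43 in dataset 2 (C1, C11, D11, E1, E11), and ran from -0.41 to 0.22 in dataset 3. The sides overlapped in each dataset, through E1 alone of the lateral voxels in dataset 1 and G9 alone of row G in dataset 3. Nfix averaged 0.87 ± 0.09 in row G and 0.11 ± 0.25 in the lateral voxels (SD, n = 3 datasets), a difference of 0.75 ± 0.32. Nrep, a protein linked to nerve regeneration, averaged 0.88 ± 0.15 in row G and 0.05 ± 0.47 in the lateral voxels, and lay wholly above them in dataset 3. Cplx1, a complexin that binds the SNARE complex of synaptic vesicles, differed by 0.68 ± 0.17. The other 4 were the RNA acetyltransferase gene Nat10 (0.68 ± 0.15), the keratin gene Krt18 (0.73 ± 0.31), the Hedgehog co-receptor gene Cdon (0.72 ± 0.32) and Tmem229b (0.61 ± 0.10). With floor values kept Nat10 was at 0.31 and Cdon at 1.24, and with no filter on missing values Krt18 was at 0.40. For Krt18 the lateral mean of dataset 2 rested on C1, at -3.11. Without C1 that mean lay above the row G mean of 0.18, so the sign in dataset 2 turned.

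Below 0 were 12 genes, from -0.49 for Epb41l2 to -1.01 for Tspo. Ppp1r1b, a phosphoprotein that relays dopamine signals in striatal projection neurons, differed by -0.67, -0.64 and -0.60 in datasets 1 to 3, a mean of -0.64 ± 0.04 (SD, n = 3). In dataset 1 it ran from -1.05 to -0.68 in row G, against -0.95 to 0.28 in the lateral voxels. In dataset 2 it ran from -0.90 to 0.15 in row G, against -0.24, 0.96, 0.66, -0.19 and 0.24 at C1, C11, D11, E1 and E11. In dataset 3 it was -0.95, -0.78, -2.80, -1.17 and -1.78 at G3, G4, G6, G7 and G9, against -1.20 to -0.68 in the lateral voxels. The even difference thus came from sides that overlapped in every dataset. Relative to the rest of the grid Ppp1r1b stood at -1.36 ± 0.29 in row G and -0.73 ± 0.32 in the lateral voxels (adjusted p = 0.326 for both, limma).

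Tspo, a protein of the outer mitochondrial membrane, differed by -1.01 ± 0.60, and by -0.45 with G8 of dataset 3 put back. Its 3 measured row G arrays in dataset 3 lay below all 6 lateral arrays. Col11a1, a chain of a fibrillar collagen, averaged -0.18 ± 0.42 in row G and 0.60 ± 0.13 in the lateral voxels (SD, n = 3 datasets), a difference of -0.77 ± 0.35, which was -0.38 with floor values kept. Without G4 of dataset 3, at -1.56, its row G mean there lay above the lateral mean of 0.61, so the sign in dataset 3 turned. Rhebl1, a Ras-like GTPase, differed by -0.80 ± 0.31 and Thg1l, related to a guanylyltransferase of transfer RNA, by -0.73 ± 0.16. Thg1l stood at 3.8 at C1 of dataset 1, and its difference was -0.53 without that array and -0.36 with the median over arrays. Among these 12 genes the smallest SD over datasets after that of Ppp1r1b was that of Epb41l2, a cytoskeletal protein of the band 4.1 family, at -0.46, -0.48 and -0.54, and its mean was -0.28 with the median over arrays. Ecrg4, which encodes a secreted peptide precursor, differed by -0.66 ± 0.08, Cib1, a calcium- and integrin-binding protein, by -0.63 ± 0.18 (-0.38 with the median over arrays) and Dip2b by -0.55 ± 0.10. For Dip2b dataset 2 rested on C1, at 3.59: without that array its difference in dataset 2 was 0.31, its mean was -0.30 ± 0.53, and the median over arrays gave -0.31. The remaining 3 were Tent4a, which adds nucleotides to RNA ends (-0.74 ± 0.44), the myosin light chain kinase gene Mylk3 (-0.70 ± 0.44) and AU015228 (-0.67 ± 0.40). Mylk3 was at -1.15 with floor values kept and -0.25 with the median over arrays. Without C1 of dataset 2, at 1.70 for Mylk3 and 1.32 for AU015228, their lateral means lay below the row G means of 0.09. In dataset 3, the row G mean of Mylk3 without G7 (-2.62) lay above its lateral mean of 1.69. That of AU015228 without G4 (-2.56) lay above 0.60. For both genes the sign thus turned in datasets 2 and 3.

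**Figure D5:**
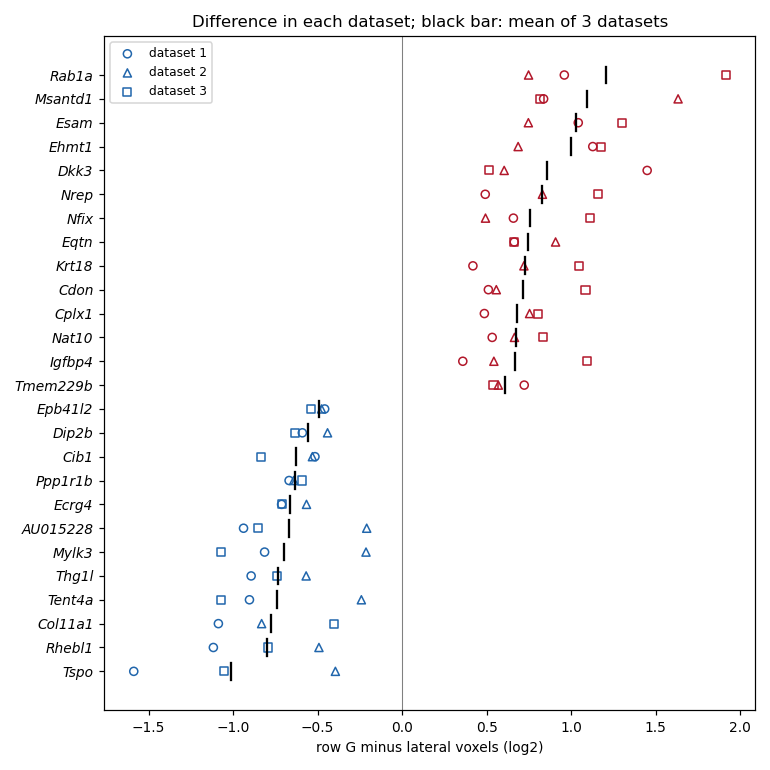
Row G minus lateral difference (log2) of the 26 named genes in each dataset, red above 0 and blue below, with a black bar at the mean of the 3 datasets. All symbols of a gene lie on 1 side of 0 by the way the genes were chosen, and Ppp1r1b and Epb41l2 have the smallest SDs of the 26 (0.04 each).

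In the gene lists, no tested member passed the adjusted test between row G and the lateral voxels. Among genes linked to the named markers, 9 of 20 members of the insulin-like growth factor system were tested, with a median of 0.13 and 8 of 9 above 0, against -0.01 and 48.2% above 0 over all genes. The marker Igfbp4 is one of the 9 and has the largest difference among them, 0.67. After Igfbp4 the smallest p in this list was that of Igf2r, the receptor that takes up insulin-like growth factor 2, at 0.65 ± 0.66. The differences of Igf2r were 0.05, 0.53 and 1.36 in datasets 1 to 3. Of 52 Wnt pathway genes 21 were tested, the marker Dkk3 among them, with a median of -0.02 and 10 above 0. Lrp5, a Wnt co-receptor, differed by -0.64 ± 0.41, and Wif1, a secreted inhibitor that binds Wnt proteins, by 0.68 ± 0.92 with dataset 2 at -0.36.

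The cortical lists had medians between -0.19 and 0.21. The excitatory list had a median of 0.21 with 4 of 6 members above 0, and of 0.08 with 3 of 5 above 0 without Dkk3, which is one of its members. Vxn differed by 0.35 ± 0.07 and Zbtb18, a zinc finger transcriptional repressor that acts in neuronal development, by 0.33 ± 0.12. The mean of this list on single arrays ran from 0.64 to 1.10 in row G and 0.28 to 0.82 in the lateral voxels in dataset 1, 0.22 to 0.89 and -0.17 to 0.64 in dataset 2, and -0.69 to 1.06 and -0.16 to 0.59 in dataset 3. The upper layer list had a median of -0.04, with 2 of 6 above 0. The deep layer list had a median of 0.19, with 7 of 8 above 0. Fezf2, a regulator of subcortical projection neurons, differed by 0.47 ± 0.08 and Tshz2 by 0.42 ± 0.16. For genes of cortical area patterning the median was 0.03 (3 of 6 above 0), and Efna5, a guidance ligand of the ephrin family, was at 0.40, 0.37 and 0.43 in datasets 1 to 3. The claustrum and lateral cortex list had a median of -0.19 with 2 of 6 above 0, and Lxn, an inhibitor of carboxypeptidases, was at -0.42, -0.50 and -0.33. Of 9 tested immediate early genes, which neuronal activity induces, 7 were above 0 (median 0.06), with Egr1 at 0.49 ± 0.08 and Arc at 0.29 ± 0.15. Calcium and calmodulin genes had 7 of 18 above 0 (median -0.06).

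Lists for tissue beneath and around the cortex were set between the sides in the same way. The myelin genes, low at both edges, had a median difference of 0.30 with 4 of 4 above 0. Qdpr differed by 0.43 ± 0.16 and Cryab by 0.33 ± 0.14. The mean of this list on single arrays ran from -0.90 to -0.17 in row G and -0.96 to -0.34 in the lateral voxels in dataset 1, -0.62 to -0.16 and -0.88 to -0.27 in dataset 2, and -1.14 to -0.38 and -1.56 to -1.004 in dataset 3. The striatal list had a median of -0.16, with 2 of 8 above 0. Its array means ran from -0.43 to -0.24 in row G and -0.70 to 0.26 in the lateral voxels in dataset 1, -0.52 to 0.46 and -0.27 to 0.44 in dataset 2, and -1.06 to 0.45 and -0.47 to -0.03 in dataset 3. The part of white matter and striatum in the differences of other genes was not tested.

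Meningeal genes had a median of -0.09 (4 of 12 above 0) and a lowest value of -0.41. The highest, against the direction of the list, was Serping1, an inhibitor of complement activation, at 0.64 ± 0.44. Of the 12, 4 were below 0 in all 3 datasets and 2 above 0 in all 3. Vascular genes had a median of 0.09 (4 of 6 above 0), blood genes 0.00 (2 of 5), astrocyte genes 0.05 (6 of 7) and choroid plexus genes 0.05 (2 of 3). Microglial genes had a median of -0.15 (0 of 4), led by Laptm5 at -0.58 ± 0.51. The 3 tested genes of inhibitory neurons had a median of 0.50 (2 of 3), with Slc32a1, the vesicular transporter of GABA, at 0.58 ± 0.24. Of 5 thalamic genes 1 was above 0 (median -0.14). That one, Prkcd, a protein kinase C, was at 0.28, 1.45 and 1.01 in datasets 1 to 3, and stood 0.15 above the rest of the grid in row G and at -0.76 in the lateral voxels. Tcf7l2, a transcription factor of thalamic neurons and of the Wnt pathway, was at -0.45 ± 0.23. Hypothalamic, hippocampal and pan-neuronal genes had medians of -0.18 (1 of 5), 0.01 (3 of 5) and 0.02 (4 of 5), and heat shock and stress genes had -0.01 (6 of 12).

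The row G minus lateral difference was also compared between mirror-image blocks of the grid, columns 1 to 5 minus columns 7 to 11. limma called 0 of 14656 genes (0.0%), with 633 (4.32%) at an unadjusted p under 0.05, 217 positive (1.48%) and 416 negative (2.84%), and 46.8% of all genes were above 0. The value for Dkk3 was 0.90 ± 1.25 and that for Igfbp4 0.67 ± 0.91 (SD, n = 3 datasets, limma adjusted p of 1.00 for both), with SDs larger than the means. Dataset 3 carried both: the values in datasets 1 to 3 were -0.04, 0.43 and 2.32 for Dkk3 and 0.03, 0.27 and 1.71 for Igfbp4. Without the array of G9 in dataset 3, where Dkk3 was at -3.30, the means were 0.14 ± 0.25 for Dkk3 and 0.58 ± 0.75 for Igfbp4. In dataset 3 this left G7 as the only row G array in columns 7 to 11, against G3 and G4 in columns 1 to 5.

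Genes whose values followed those of the 2 markers over the row G and lateral arrays were named by the mean over datasets of Pearson's r within a dataset. The arrays share their dataset and dye, and the correlations are a description. For Dkk3 these were Ciz1 (mean r = 0.75), Sparcl1 (0.75), Ppp3r1 (0.72), Pde1a (0.72) and Mamld1 (0.71). Their row G minus lateral differences were smaller than that of Dkk3, between 0.14 for Ciz1 and 0.37 for Pde1a, and Sparcl1, a matrix protein, was at 0.42, 0.31 and 0.29 in datasets 1 to 3. For Igfbp4 they were Camk2g (0.76), Efna5 (0.75), Nfix (0.70), Ndrg3 (0.69) and Cplx1 (0.69). Dkk3 and Igfbp4 correlated with each other at 0.55, 0.75 and 0.56 in datasets 1 to 3 (mean 0.62), which placed Igfbp4 at rank 35 for Dkk3 and Dkk3 at rank 13 for Igfbp4 among 7974 genes with a symbol.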

How the data were processed

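The authors deposited a table of log2 ratios of voxel against whole brain RNA, with 20847 rows and 192 arrays. Total RNA was extracted with Trizol, reverse transcribed and coupled to dyes, per the labels' protocols. The dyes of each array were taken from its own description, since the labelling protocol names another experiment's treatment. How arrays were scanned, background-corrected and normalized is not given in the sources used here. Rows of the deposited table were centred: for 99.9% of them the median lay within 0.001 of 0. A floor of -6.64 held 0.483% of values.

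Floor values were treated as missing. The median over rows present on every array was subtracted from each array, a shift of 0.353 or less. A row needed values on 80% or more of every dataset's arrays and on 3 or more arrays per side and dataset. Control rows were removed, and rows of 1 symbol were averaged. This gave 14883 genes, 7975 with a symbol from the platform annotation. Of 13211 rows with 1 symbol, 12982 matched the mouse gene table.

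The mean of row G minus the mean of the lateral voxels within a dataset was tested with limma 3.58.1 in R 4.3.3 (lmFit, eBayes, two-sided against 0, Benjamini-Hochberg over all genes, threshold 0.05). Both sides against the rest of the grid, and columns 1 to 5 against 7 to 11, were tested likewise. The dataset is the replicate: it marks an independent harvest, and the deviations of row G and lateral means correlated at 0.583, 0.326 and 0.459 in datasets 1 to 3. Whether the pooled voxels of a dataset came from separate animals is not stated.

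Named were Dkk3 and Igfbp4, the 12 genes with a symbol of smallest p in each direction among those of the same sign in 3 datasets, up to 4 members of each list, chiefly those of smallest p, and the 5 genes most like each marker. Members and lists were chosen with earlier results of these data known. Alternatives changed the floor, centring, filters, averaging, arrays, positions, block and datasets.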

Additional observations from a re-analysis of the deposited data

Results flagged for a closer look

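Of 162 sets of 4 to 10 arrays tested for an array far from the others, 16 held one, and chance alone gives about 1 in 20. All values are centred log2 ratios unless stated. In row G, Dkk3 was at -3.30 at G9 of dataset 3, Cdon at -0.84 at G4 of dataset 3, and Esam at 5.90 and Tent4a at 1.19 at G3 of dataset 2. Ecrg4 was at 0.81 at G3 and Tspo at 2.85 at G7 of dataset 1, and Tspo at -0.97 at G5 of dataset 2. In the lateral voxels, E1 of dataset 1 stood apart for Ehmt1 (0.93) and Nfix (1.01), and C1 of dataset 1 for Thg1l (3.8) and Ecrg4 (2.67). C1 of dataset 2 stood apart for Dip2b (3.59), D1 of dataset 3 for Rhebl1 (4.14), E11 of dataset 3 for Eqtn (0.24) and E1 of dataset 3 for Nat10 (-4.29). E1 of dataset 3 also had the highest share of values missing or at the floor among its lateral arrays, 5.90%.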

How the results depend on the processing

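The row G against lateral comparison called 0 genes in limma under every alternative run, including 3 chosen after seeing the data: the median over arrays, the sign of dataset 2 turned, and both G3 of dataset 2 and G9 of dataset 3 left out. At an unadjusted p under 0.05 its 353 genes became 654 with quantile normalization, 769 without dataset 2 and 631 without dataset 3. The datasets pair the arrays, and with no replicate block the count was 76 (row G against the rest 241 in place of 1031, lateral against the rest 261 in place of 1592), while the adjusted calls stayed at 0 in all 4 comparisons. Row G against the rest called 2 genes with quantile normalization, 33 with rows measured on every array of both sides, and 0 to 48 with a dataset left out, the 48 without dataset 3. Lateral against the rest called 25 with rows measured on every array. The comparison of column blocks called 0 to 41 with a dataset left out, the 41 without dataset 1. Its unadjusted count of 633 was 408 with floor values kept and 308 with rows measured on every array. The cause of these changes was not tested. Leaving out single arrays for Esam, Eqtn, Krt18, Dip2b, Thg1l, Col11a1, Mylk3 and AU015228 was also chosen after seeing the data. So was leaving out G9 of dataset 3 for the column blocks, and Dkk3 from the excitatory list. The mean differences of the 26 named genes kept their sign in every alternative in which they were measured, and none passed: each adjusted p stayed above 0.05. With a dataset left out or no replicate block the sign was fixed in advance, because these genes had 1 sign in 3 datasets. Of the 26, 18 had no value with rows measured on every array. The values of Dkk3 ran from 0.45, with the sign of dataset 2 turned, to 1.18, and those of Igfbp4 from 0.30, with that sign turned, to 0.82.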

Other observations

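The 2 arrays left out gave Dkk3 a log2 ratio of 0.70 at G8 of dataset 3 and -0.04 at D1 of dataset 2. Igfbp4 was at 0.93 and -0.51 on the same arrays.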
